A study of Rattus norvegicus with 12 samples.

Results

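Tmem119, Csf1r, Laptm5, Cd68, Aif1, Ptprc, Tyrobp and Cx3cr1 are 8 genes in common use as markers of microglia and macrophages. They were taken by name from the 17315 genes of the count files, and all 8 were present. They were followed across 12 rat RNA sequencing libraries made from 3 kinds of cultured cells labelled as Müller cells, the radial glia that span the retina. The question was whether reads of these genes stood with other genes of the myeloid lineage in each library, or without them. Cultures of retina can carry over resident microglia, and a marker gene can also be read from a cell that is no leukocyte.

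All cells derived from Sprague-Dawley rats and grew in 25 mM glucose and 2 mM glutamine. The primary Müller cell (Primary MC) cultures, 4 libraries, came from pups of postnatal day 2 to 4 and were at passage 4 (replicates 1 and 2) or 3 (replicates 3 and 4). Their medium held 20% serum and 2 drugs, the antibiotic gentamicin at 87 mg/L and the antifungal amphotericin B at 2.2 mg/L. SIRMu-1, 5 libraries at passages 6, 11, 11, 11 and 20 for replicates 1 to 5, is a line that arose from pup cells by spontaneous immortalization. It was kept in 20% serum, and replicates 3 and 5 also received both drugs. The rMC-1 line, 3 libraries at passages 23, 26 and 26, came from adult rats and is known to carry the SV40 large T antigen. It was kept in 10% serum without the drugs. Each line is a single line, so its libraries vary only as cultures of that line do.

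Reads assigned to genes came to 22582345 to 29812705 in primary libraries, 26349346 to 36730443 in SIRMu-1 and 27351014 to 38125630 in rMC-1. CPM are the counts of a gene scaled to a common library size. A gene with 0 reads could still have been present at up to the level of 3 reads. By library, that was 0.0618 CPM (rMC-1 replicate 2) to 0.134 CPM (primary replicate 3) on the scale used below. Levels below are CPM on edgeR's TMM scale, given as mean ± SD, and intervals and floors cover counting error only. The p-values reflect only how far libraries lie apart within groups. That spread was estimated over all 3 groups and with help from the other genes, and some of it may be technical. Some libraries share a code in their file names (primary 1 and 2, rMC-1 1 and 2, SIRMu-1 1 to 3, SIRMu-1 4 and 5), and if these stem from 1 culture the p-values are too small. Primary replicates 1 and 2 stood apart from the other 10 libraries in myeloid genes, so the calls of the markers and the counts of the gene lists were also made with the passage 3 primary libraries, replicates 3 and 4, only. Those values are given where they change a call or a count. Of 12 Müller glia markers, Vim, an intermediate filament gene that many cultured cells express, was at 5422 to 7098 CPM in primary, 2847 to 3985 in SIRMu-1 and 1305 to 1430 in rMC-1 libraries. Rlbp1, which encodes a retinaldehyde-binding protein of Müller cells in the retina, had 0 to 3 reads in primary, 3 to 7 in SIRMu-1 and 24 to 44 in rMC-1 libraries. Some other genes of the list were well read in primary libraries. Glul (glutamine synthetase) had 1515 to 5180 reads, the glutamate transporter gene Slc1a3 331 to 1208, Sox9 843 to 1875 and Dkk3 17520 to 40710. Few reads there fell on Aqp4 (0 to 2) and Kcnj10 (1 to 8), and Sox2 had 5 to 185. Of the 10 Müller glia markers tested, 0 were higher and 7 lower in SIRMu-1 than in primary cultures, and 1 was higher and 7 were lower in rMC-1. With passage 3 primary libraries only, 6 were lower in each line. With all primary libraries, 24.4% of all tested genes were called lower in SIRMu-1 and 38.9% in rMC-1.

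Microglia are the resident macrophages of the retina and brain. The receptor tyrosine kinase CSF1R, on binding CSF-1 or IL-34, keeps them alive, and the transcription factor PU.1, encoded by Spi1, drives much of their gene program. TYROBP (DAP12) is a membrane adaptor that couples receptors such as TREM2 to the kinase SYK. CX3CR1 is the receptor of fractalkine, the product of Cx3cl1. PTPRC (CD45) is a tyrosine phosphatase on leukocytes, AIF1 (IBA1) an actin-bundling protein, and CD68 and LAPTM5 are membrane proteins of lysosomes. TMEM119 is a membrane protein that marks microglia in nervous tissue, and outside it is known for a role in osteoblast differentiation.

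The markers did not share a pattern. Tmem119 was abundant in all primary and SIRMu-1 libraries and nearly absent from rMC-1. Cd68 was read at a low level in all 12 libraries. Csf1r was low in primary cultures and lower in most libraries of the lines. Laptm5, Ptprc, Tyrobp and Aif1 were read mainly in primary replicates 1 and 2, with few or no reads in SIRMu-1 and rMC-1. Cx3cr1 had 2 reads in primary replicate 2 and none elsewhere. The plot of CPM by library shows all 8.

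**Figure D1:**
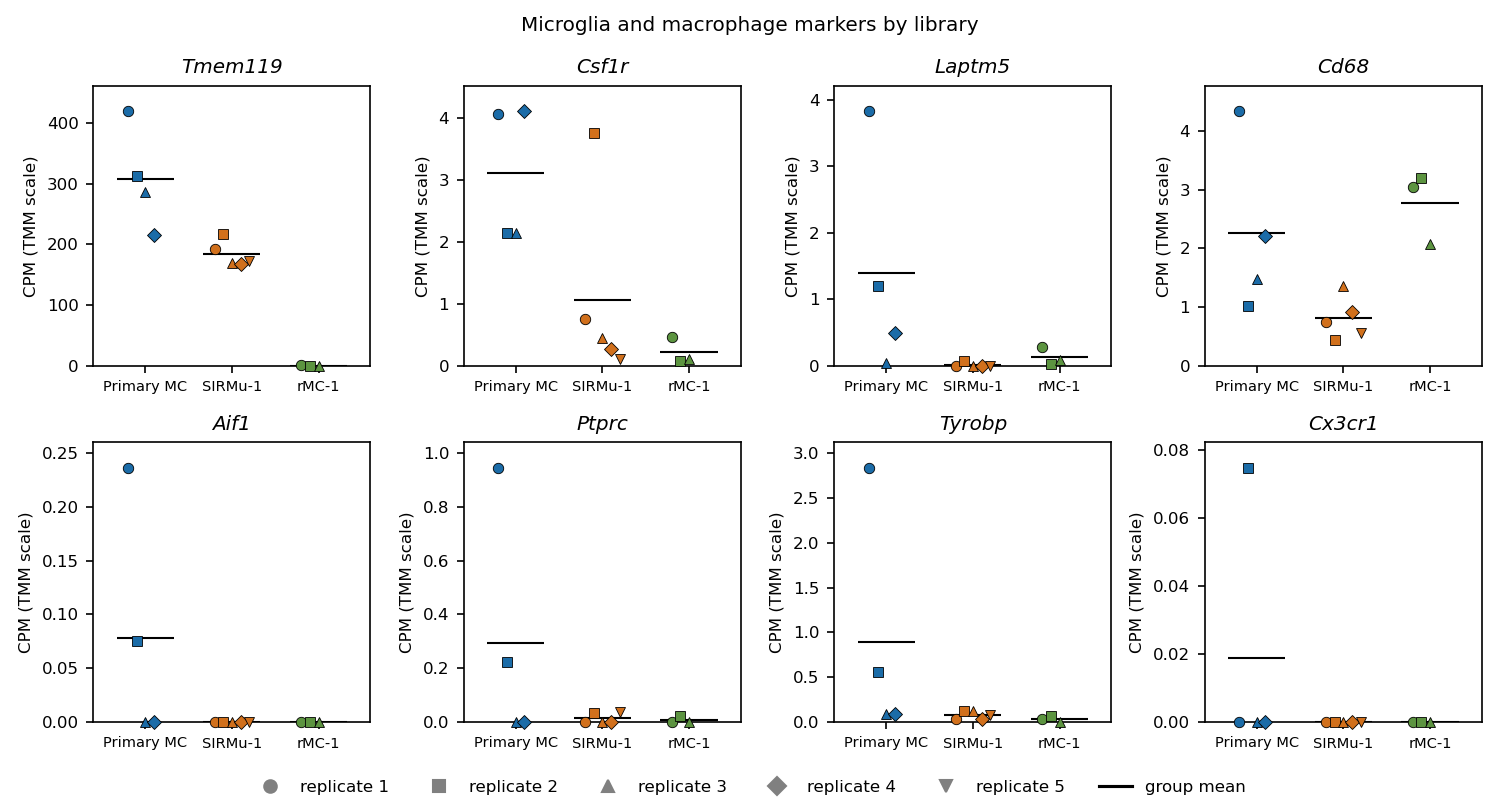
CPM on the TMM scale of each of the 8 markers (vertical axes differ between panels) in the 4 primary, 5 SIRMu-1 and 3 rMC-1 libraries. Each point is a library, its shape the replicate number, and the bar is the group mean. Tmem119 sits between 168 and 419.5 CPM in all primary and SIRMu-1 libraries, while Laptm5, Aif1, Ptprc and Tyrobp have their highest point in primary replicate 1.

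Tmem119 stood at 419.5, 313.0, 286.6 and 214.8 CPM in primary replicates 1 to 4 (308.5 ± 84.9, n = 4). In SIRMu-1 replicates 1 to 5 it stood at 192.8, 216.5, 168.8, 168.0 and 172.9 CPM (183.8 ± 20.9, n = 5). Primary replicate 4 fell within the range of SIRMu-1, so the 2 groups overlapped. In rMC-1 the gene had 12, 2 and 4 reads, or 0.342, 0.0412 and 0.105 CPM (0.163 ± 0.158, n = 3), far below every other library.

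Between SIRMu-1 and primary cultures the log2 fold change of Tmem119 was -0.75 ± 0.26 (SE), with an edgeR adjusted p of 0.0351. That call was lost in 10 of 23 alternative settings, in 6 of them by leaving out a single library (primary replicate 1 or 2, or SIRMu-1 replicate 1, 3, 4 or 5). Without primary replicate 1 the change was -0.56 with an adjusted p of 0.112, and with passage 3 primary libraries only -0.45 with an adjusted p of 0.262. Between rMC-1 and primary cultures it was -10.95 ± 0.52 (edgeR adjusted p 3.09e-08), and between SIRMu-1 and rMC-1 10.20 ± 0.50 (edgeR adjusted p 5.11e-08). Both of these comparisons kept their call in all alternatives run. In order of level, primary cultures came before SIRMu-1 with overlap, and both before rMC-1 without overlap.

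Csf1r, the receptor on which microglia depend, had 103, 57, 48 and 93 reads in primary replicates 1 to 4, or 4.06, 2.13, 2.15 and 4.10 CPM (3.11 ± 1.12, n = 4). Its reads in SIRMu-1 replicates 1 to 5 were 21, 119, 11, 8 and 3, or 0.747, 3.75, 0.454, 0.263 and 0.112 CPM (1.06 ± 1.52, n = 5). SIRMu-1 replicate 2 lay within the primary range, and the other SIRMu-1 libraries lay below it. In rMC-1 it had 16, 4 and 4 reads, or 0.456, 0.0824 and 0.105 CPM (0.215 ± 0.209, n = 3).

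For Csf1r the change between SIRMu-1 and primary cultures was -1.53 ± 0.84 on the log2 scale, with an edgeR adjusted p of 0.156. Without SIRMu-1 replicate 2 it was -2.97 ± 0.65, with an edgeR adjusted p of 0.00375. Csf1r passed the threshold in 2 of 23 alternatives, this one included, and the change ranged from -3.45 to -1.28 over them all. Between rMC-1 and primary cultures the groups did not overlap, and Csf1r fell by 3.86 ± 1.14 on the log2 scale (edgeR adjusted p 0.00937). That call held in all 22 alternatives, including both fits restricted to primary libraries of the same passage. SIRMu-1 and rMC-1 overlapped, and the change of 2.33 ± 1.06 did not pass the threshold (edgeR adjusted p 0.0726). It passed without rMC-1 replicate 1 (adjusted p 0.0466), without SIRMu-1 replicate 5 (0.0391) and with DESeq2 (0.0305).

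Cd68, a sialomucin of late endosomes and lysosomes, had 110, 27, 33 and 50 reads in primary replicates 1 to 4, or 4.34, 1.01, 1.48 and 2.20 CPM (2.26 ± 1.47, n = 4). In SIRMu-1 replicates 1 to 5 it had 21, 14, 33, 28 and 15 reads, or 0.747, 0.441, 1.36, 0.922 and 0.562 CPM (0.807 ± 0.360, n = 5). In rMC-1 it had 107, 155 and 79 reads, or 3.05, 3.19 and 2.08 CPM (2.77 ± 0.605, n = 3). The rMC-1 libraries were thus all above SIRMu-1, and primary cultures overlapped with both lines.

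Cd68 fell by 1.49 ± 0.45 on the log2 scale between primary cultures and SIRMu-1 (edgeR adjusted p 0.0181). Without primary replicate 1, which held its highest level, the change was -0.95 with an adjusted p of 0.0812, and with passage 3 primary libraries only -1.19 with 0.0561. Against rMC-1, SIRMu-1 was lower by a log2 change of -1.78 ± 0.47 (edgeR adjusted p 0.00615), a call that held in all 20 alternatives. The change between rMC-1 and primary cultures was 0.30 ± 0.50 (edgeR adjusted p 0.604).

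Laptm5, which encodes a lysosomal protein of blood-forming cells, had 97, 32, 1 and 11 reads in primary replicates 1 to 4, or 3.83, 1.20, 0.0447 and 0.485 CPM. Of the SIRMu-1 libraries only replicate 2 had any, with 2 reads. In rMC-1 it had 10, 1 and 3 reads, or 0.285, 0.0206 and 0.0790 CPM. Primary replicate 3 lay within the range of both lines, so the groups overlapped in every comparison.

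Over the group, Laptm5 was 102.5 times as high in primary cultures as in SIRMu-1, with a 95% counting interval of 27.9 to 854.4. The fitted log2 change was -6.27 ± 1.32 (edgeR adjusted p 0.00256), and -3.90 with an adjusted p of 0.0503 when only primary libraries of passage 3 were used. Between rMC-1 and primary cultures the log2 change was -3.45 ± 1.24 (edgeR adjusted p 0.0255). It was -2.20 without primary replicate 1 (adjusted p 0.103) and -1.08 with passage 3 primary libraries only (0.45), and the call was also lost without SIRMu-1 replicate 2 (0.0514), rMC-1 replicate 2 (0.0923) or rMC-1 replicate 3 (0.0885), with libraries of the same file code summed (0.109) and in a fit of only the 2 groups compared (0.0591). Between SIRMu-1 and rMC-1 the change was -2.82 ± 1.55 (edgeR adjusted p 0.131).

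The other 4 markers stayed under edgeR's expression filter and were not tested with the rest. Ptprc had 24, 6, 0 and 0 reads in primary replicates 1 to 4, 1 read each in SIRMu-1 replicates 2 and 5, and 1 in rMC-1 replicate 2. Over the group its level in primary cultures was 21.8 times that in SIRMu-1 (95% counting interval 5.53 to 188.3) and 37.6 times that in rMC-1 (6.24 to 1532). Those reads came from primary replicates 1 and 2 alone.

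Tyrobp had 72, 15, 2 and 2 reads in primary replicates 1 to 4, or 2.84, 0.561, 0.0894 and 0.0881 CPM. It had 1, 4, 3, 1 and 2 reads in SIRMu-1 and 1, 3 and 0 in rMC-1. By CPM, primary replicates 3 and 4 were within the range of SIRMu-1 and just above that of rMC-1. Aif1 had 6, 2, 0 and 0 reads in primary cultures and none in the lines. Set against a floor of 3 reads over each line, its level in primary cultures was 3.88 times that of SIRMu-1 and 3.34 times that of rMC-1. These ratios leave out the counting error of the few primary reads, and primary replicates 3 and 4 had 0 reads, as the lines did. For Cx3cr1 the 2 reads in all gave no fold.

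In a fit without the expression filter, over 14825 genes, Tyrobp was called lower in SIRMu-1 (log2 change -3.44 ± 1.02, edgeR adjusted p 0.018) and in rMC-1 (-4.63 ± 1.32, 0.00914) than in primary cultures. Ptprc was called lower as well, with adjusted p of 0.0318 and 0.0274. Aif1 and Cx3cr1 were not called in either line. For Aif1 the adjusted p was 0.0889 in SIRMu-1 and 0.0856 in rMC-1. The primary mean of these genes rests on replicates 1 and 2.

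Among the 4 markers tested, 3 were called lower in SIRMu-1 than in primary cultures and 0 higher, where 46.1% of all 11321 tested genes were called and 24.4% were called lower. With passage 3 primary libraries only, 0 of the 4 were called by edgeR. The shares here are those of the fit with all 12 libraries. Over the 23 alternatives, the passage 3 fit included, 3072 to 5689 of all genes were called in SIRMu-1 against primary cultures. In rMC-1 against primary cultures 3 were lower and 0 higher, where 70.8% of genes were called and 38.9% lower. There 2 were lower with passage 3 primary libraries only, as Laptm5 was then not called. Over the 22 alternatives of that comparison 7294 to 8617 of all genes were called. In SIRMu-1 against rMC-1 Tmem119 was higher and Cd68 lower, where 63.2% of genes were called, 32.7% higher and 30.5% lower. These filtered counts leave out the 4 markers with the fewest reads, and 4 genes are too few to set against such shares. The first and second comparisons share the primary libraries.

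The median log2 change of the 4 tested markers was -1.51 in SIRMu-1 against primary cultures, -3.66 in rMC-1 against primary cultures and 0.27 in SIRMu-1 against rMC-1. The medians of all tested genes were -0.02, -0.15 and 0.03. Scaling by library totals moved the last 2 of these to 0.32 and -0.40. The calls over all genes then split into 5077 higher and 3130 lower in rMC-1 against primary cultures, from 3614 and 4403. In SIRMu-1 against rMC-1 they split into 2324 and 5227, from 3702 and 3455. Every one of the 4 markers kept its direction and its side of the threshold under that scaling in all 3 comparisons. Groups did not overlap for Tmem119 and Csf1r in rMC-1 against primary cultures and for Tmem119 and Cd68 in SIRMu-1 against rMC-1. Nor did they overlap in CPM for the untested Tyrobp in rMC-1 against primary cultures. There primary replicates 3 and 4 had 2 reads each and rMC-1 replicate 2 had 3, so the order rests on library scaling near the floor. Groups overlapped for all 8 in SIRMu-1 against primary cultures. The shares of tested genes whose groups did not overlap were 70.9%, 63.0% and 35.3% in these comparisons. The plot of fold changes shows each tested marker under all settings.

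**Figure D2:**
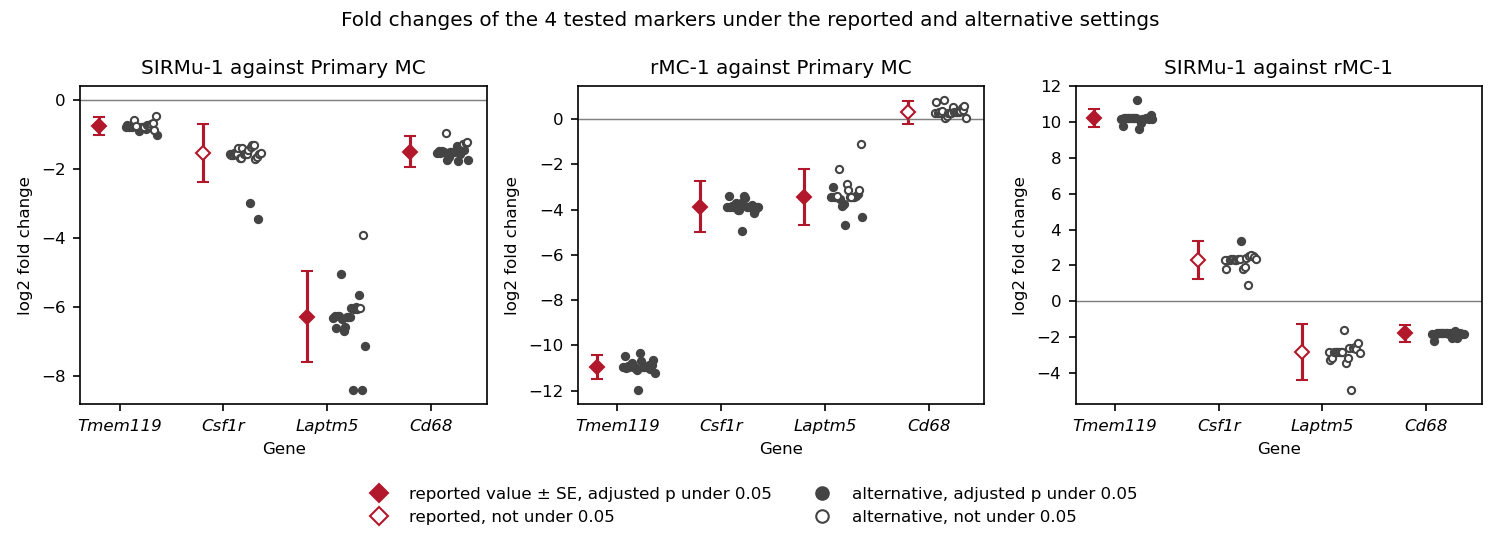
Log2 fold changes of Tmem119, Csf1r, Laptm5 and Cd68 in the 3 comparisons. Diamonds are reported values with standard errors, circles the same value under each alternative setting, and filled symbols have an edgeR or DESeq2 adjusted p under 0.05. Tmem119 has -10.95 in rMC-1 against primary cultures and -0.75 in SIRMu-1, and no marker changes sign.

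In bulk cultures, fewer cells of a type and less RNA per cell cannot be told apart. Beside the 8 markers, 45 other genes of the myeloid lineage in 4 lists were counted: microglia identity, macrophage surface and effector, pan-leukocyte and myeloid transcription factor genes. Of these, 36 had 10 or more reads in primary replicate 1 and 22 in primary replicate 2, against 10 and 12 in primary replicates 3 and 4. SIRMu-1 libraries had 8 to 10 and rMC-1 libraries 7 to 8 such genes. With 0 reads were 3 and 5 genes in primary replicates 1 and 2, 22 and 17 in replicates 3 and 4, 23 to 28 in SIRMu-1 and 23 to 26 in rMC-1. Primary replicates 1 and 2 therefore stood apart from the other 10 libraries in the number of myeloid genes read. They were also the passage 4 cultures and share a code in the names of their files, so library, passage and code cannot be told apart.

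Of the 45 genes, 32 had 20 or more reads over the 4 primary libraries. In 25 of these, primary replicates 1 and 2 both stood above replicates 3 and 4 by CPM, and in 21 replicate 1 was also above replicate 2. The other 7 were Sall1, Slc2a5, Cd14, Vav1, Arhgdib, Lcp1 and Cebpa, and Gpr34 (3, 17, 1 and 0 reads) was highest in replicate 2. How many of all genes had replicates 1 and 2 both above 3 and 4 was not counted. Genes outside the myeloid lists also had that order, such as Sp7 with 348, 376, 1 and 7 reads. Several textbook macrophage genes were among the 21. Lyz2, which encodes lysozyme, had 288, 76, 2 and 0 reads in primary replicates 1 to 4. Mpeg1, encoding a pore-forming protein of macrophages, had 118, 46, 0 and 0. Adgre1, the gene of F4/80, had 50, 15, 0 and 0, and the integrin gene Itgb2 56, 19, 1 and 2. The complement gene C1qa had 39, 4, 0 and 0 reads, and Trem2, a receptor that signals through TYROBP, 36, 1, 0 and 0. Ptprc and Aif1 had the same order over the primary libraries. Spi1, the gene of PU.1, had 11, 3, 1 and 1 reads.

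From primary replicate 1 to replicate 2 the CPM ratio was 1.34 for Tmem119, 1.90 for Csf1r, 3.20 for Laptm5, 4.22 for Ptprc, 4.29 for Cd68 and 5.06 for Tyrobp. Among genes with 20 or more reads in these 2 libraries together, 31 of the myeloid lists had a median ratio of 2.70, with 24 of them higher in replicate 1. The ratio over 10887 tested genes had a median of 1.03 and quartiles of 0.837 and 1.26. Tmem119 was the marker closest to that median. The share of myeloid cells in the change of any marker was not tested.

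In SIRMu-1, 18 of the 45 genes had 0 reads in all 5 libraries, and 27 had 3 reads or fewer in the 5 libraries together. Among the 18 were P2ry12, P2ry13, Trem2, Itgb2, Adgre1, C1qa, Spi1 and Ikzf1. P2ry13, Cd163 and Cd52 had 0 reads in all 12 libraries, the primary ones included. P2ry12 had only 1, 3, 0 and 0 reads in primary replicates 1 to 4. Summed over the 19 macrophage genes, SIRMu-1 stood at 3.43 to 6.44 CPM, and Cd14 alone gave 94.2% to 98.3% of those reads. Primary replicates 1 to 4 stood at 49.4, 29.98, 11.1 and 14.1 CPM, with 23.0% of the reads from Lyz2 in replicate 1 and 95.2% from Cd14 in replicate 3. Reads of Tmem119 in SIRMu-1 (4088 to 6879 per library) stood beside 0 reads of Aif1, Cx3cr1, Adgre1, C1qa and Trem2 and at most 1 of Ptprc in each library. Other markers and listed genes were read in the same libraries. Csf1r had 3 to 119 reads, Cd68 14 to 33, Cd48 1191 to 1911 and Slc2a5 49 to 240. Coro1a had 13 to 50, Fcer1g 5 to 14 and Irf8 2 to 13. Primary replicates 3 and 4 had 6409 and 4874 reads of Tmem119 with 0 reads of Aif1, Ptprc, Cx3cr1, Adgre1, Mpeg1, C1qa and Trem2. They were not without reads of other markers: Csf1r had 48 and 93, Cd68 33 and 50, Laptm5 1 and 11 and Tyrobp 2 and 2. Of the listed genes, Mrc1 had 3 and 20 reads in them, Ctss 4 and 6, Lcp1 26 and 90 and Arhgdib 24 and 173.

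In rMC-1, 21 of the 45 genes had 0 reads in all libraries and 30 had 3 or fewer in the 3 libraries together. The macrophage sum of 8.27 to 10.2 CPM was 97.1% to 98.8% Cd14 by reads. Cd68 in rMC-1 (79 to 155 reads) stood with Ptprc, Aif1, Cx3cr1 and Tyrobp at 0 to 3 reads and with Adgre1, Itgb2 and C1qa at 0. It also stood with Csf1r at 4 to 16 reads, Laptm5 at 1 to 10, Fcer1g at 12 to 16 and Sall1 at 1090 to 1755. The heatmap of read counts shows these genes library by library.

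**Figure D3:**
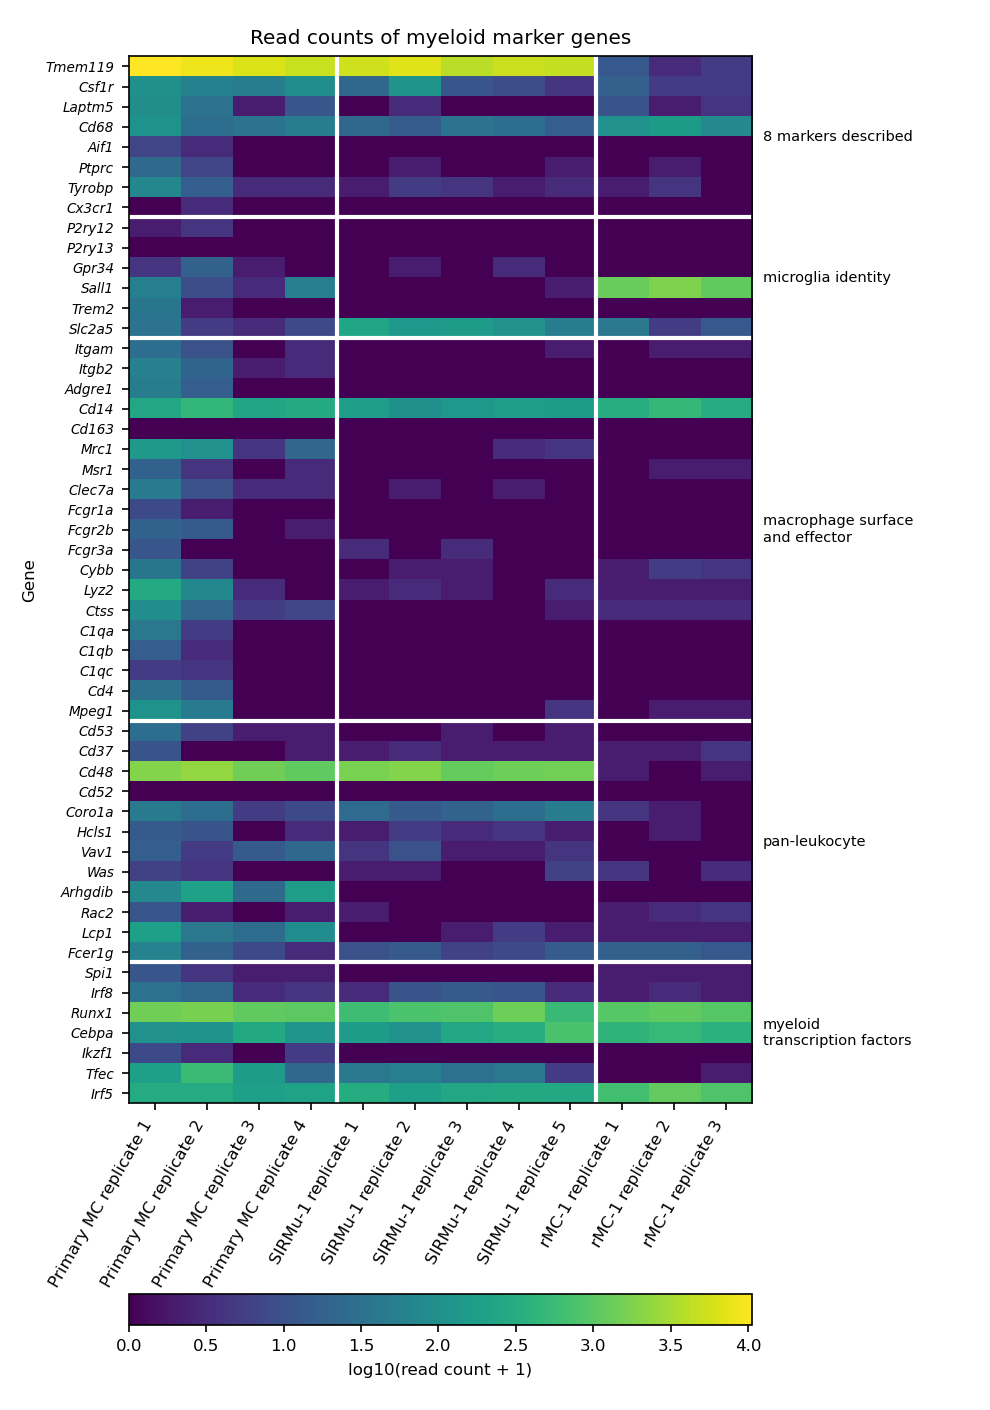
Read counts, as log10(count + 1), of the 8 markers and other genes of the myeloid lists (vertical axis, by list) in the 12 libraries (horizontal axis, white lines between groups). Primary replicates 1 and 2 hold 36 and 22 of the 45 listed genes with 10 or more reads, and no other library more than 12. Tmem119, Cd14, Cd48, Runx1, Cebpa and Irf5 are read beyond those libraries.

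Several genes of these lists were read outside primary replicates 1 and 2. Cd14, the lipopolysaccharide co-receptor, had 236 to 455 reads in primary, 105 to 177 in SIRMu-1 and 305 to 486 in rMC-1 libraries. It fell by 1.22 ± 0.22 on the log2 scale in SIRMu-1 against primary cultures (edgeR adjusted p 0.000909). Cd48, the gene of a leukocyte surface glycoprotein, had 1115 to 2340 reads in primary and 1191 to 1911 in SIRMu-1 libraries, but 1, 0 and 1 in rMC-1. Its level in primary cultures was 4219 times that in rMC-1 (95% counting interval 1168 to 34850).

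Sall1, a transcription factor gene of microglia that is also active in other developing organs, had 1090 to 1755 reads in rMC-1 and 1 read in all of SIRMu-1. It rose by 4.78 ± 0.75 in rMC-1 against primary cultures (edgeR adjusted p 0.000142). Slc2a5, the fructose transporter gene, had 49 to 240 reads in SIRMu-1 and 2 to 33 in primary libraries, with a log2 change of 3.42 ± 0.89 (edgeR adjusted p 0.00821). Runx1, Cebpa and Irf5 had over 100 reads in every library.

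Of all tested genes, 46.1% were called in SIRMu-1 against primary cultures (21.7% higher, 24.4% lower) and 70.8% in rMC-1 (31.9% higher, 38.9% lower). These shares stand beside the list counts here and below. By list, the 2 tested microglia identity genes, Sall1 and Slc2a5, gave 1 higher and 1 lower call in SIRMu-1 against primary cultures. In rMC-1 against primary cultures they gave 1 higher call and none lower. Both tested macrophage genes, Cd14 and Mrc1, were lower in SIRMu-1, and Mrc1 was lower in rMC-1. Mrc1, the gene of the mannose receptor CD206, had 146, 108, 3 and 20 reads in primary libraries and 0 to 3 in the lines. Of 6 tested pan-leukocyte genes, 3 were lower in SIRMu-1 and 5 in rMC-1, with none higher. Of these, Arhgdib had 78, 204, 24 and 173 reads in primary libraries and none in the lines. Set against a floor of 3 reads over each line, that was 232.1 times the level of SIRMu-1 and 199.9 times that of rMC-1. Lcp1, encoding the actin-bundling protein L-plastin, had 185, 39, 26 and 90 reads in primary libraries and 0 to 4 in the lines.

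Of 6 tested myeloid transcription factor genes, 3 were lower in SIRMu-1 and none higher, and in rMC-1 3 were lower and Irf5 was higher. These counts are near the shares of all tested genes called, 46.1% in SIRMu-1 and 70.8% in rMC-1. With passage 3 primary libraries only, 1 of the 6 was lower in SIRMu-1 and 2 in rMC-1. Tfec, of the MiT family, had 184, 552, 161 and 22 reads in primary libraries, 4 to 51 in SIRMu-1 and 0 to 1 in rMC-1. Of the other leukocyte and platelet genes, 14 of 16 listed were in the files. Pf4, a gene of platelets and some macrophages, had 54, 6, 0 and 0 reads in primary libraries and none in the lines. Cd2, the only tested gene of that list, had 1 to 3 reads in primary libraries and 2 to 24 in the lines, with log2 changes of 2.33 in rMC-1 (edgeR adjusted p 0.0182) and 1.84 in SIRMu-1 (0.0606).

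Promoter sequence was read for the markers that the reference table held. In the RefSeq promoter table on assembly GRCr8, 5 of the 8 markers had an entry (Laptm5, Cx3cr1, Cd68, Ptprc and Csf1r). The 250 bases before each start site were searched on both strands for the letters GGAAGT, which read as ACTTCC from the opposite strand, a core that PU.1 and other ETS factors can bind. It was found for Ptprc, Laptm5 and Cd68, and 19.2% of all 33469 promoters held it. The capitals below mark the matches, and each sequence runs 5′ to 3′ towards the gene. A match is no evidence of binding, and Spi1 itself had 1 to 11 reads in primary libraries, none in SIRMu-1 and 1 in each of rMC-1.
Ptprc: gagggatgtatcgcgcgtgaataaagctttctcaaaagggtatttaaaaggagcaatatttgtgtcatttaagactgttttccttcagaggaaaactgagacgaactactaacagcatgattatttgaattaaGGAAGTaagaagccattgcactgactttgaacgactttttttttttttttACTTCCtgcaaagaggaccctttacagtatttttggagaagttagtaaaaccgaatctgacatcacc
Laptm5: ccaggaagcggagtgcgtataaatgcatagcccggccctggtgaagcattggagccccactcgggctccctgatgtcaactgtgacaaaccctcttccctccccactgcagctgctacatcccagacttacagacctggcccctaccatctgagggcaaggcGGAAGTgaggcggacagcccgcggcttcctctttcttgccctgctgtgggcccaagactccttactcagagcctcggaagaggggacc
Cd68: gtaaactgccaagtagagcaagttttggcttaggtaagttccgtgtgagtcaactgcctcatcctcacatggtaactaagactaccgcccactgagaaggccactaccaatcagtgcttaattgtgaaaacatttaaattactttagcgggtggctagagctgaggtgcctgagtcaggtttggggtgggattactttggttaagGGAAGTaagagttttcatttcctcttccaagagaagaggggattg
The Ptprc sequence lies at chr13:52259747-52259996 on the minus strand, with matches from 117 to 112 bases and, on the other strand, from 67 to 62 bases before the start. The Laptm5 sequence lies at chr5:148371630-148371879 on the plus strand, with its match from 88 to 83 bases before the start. The Cd68 sequence lies at chr10:54882442-54882691 on the minus strand, with its match from 45 to 40 bases before the start. The counts were made on build rn6, so these coordinates describe the promoters alone and not the counting.

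Ligands and signalling partners of the markers were listed as 12 genes, of which 9 were tested. In SIRMu-1 against primary cultures 0 were higher and 6 lower (median log2 change -1.91), and in rMC-1 against primary cultures 3 were higher and 4 lower (-0.85). With passage 3 primary libraries only, 5 were lower in SIRMu-1, and 2 were higher and 4 lower in rMC-1. Csf1, the ligand of CSF1R, had 2085 to 7529 reads in primary, 965 to 2206 in SIRMu-1 and 4269 to 5780 in rMC-1 libraries. It fell by 1.91 ± 0.33 on the log2 scale in SIRMu-1 (edgeR adjusted p 0.0007), while in rMC-1 the change of -0.85 had an adjusted p of 0.06. Il34, the other CSF1R ligand, was read at 2, 3, 2 and 39 reads in primary libraries and 0 to 2 in the lines, and was not tested.

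Cx3cl1, the ligand of CX3CR1, stood at 8.09 ± 3.5 CPM in primary cultures (n = 4), 0.174 ± 0.137 in SIRMu-1 (n = 5) and 0.691 ± 0.836 in rMC-1 (n = 3). It was lower in both lines, by log2 changes of -5.50 ± 0.79 in SIRMu-1 (edgeR adjusted p 0.000225) and -3.56 ± 0.86 in rMC-1 (0.00285). Syk, the kinase downstream of TYROBP, had 46, 13, 1 and 39 reads in primary libraries and 0 to 1 in the lines. Primary replicate 4 was thus high for Syk though it had 2 reads of Tyrobp. Hcst (DAP10), the adaptor gene that lies beside Tyrobp, had 1 read in all. The Src family kinase gene Lyn had 195 to 338 reads in primary, 353 to 632 in SIRMu-1 and 0 to 1 in rMC-1 libraries. Fyn, of the same family, was at 63.6 ± 23.2 CPM in primary cultures, 45.4 ± 7.85 in SIRMu-1 and 100.3 ± 4.33 in rMC-1, where it was called higher (log2 change 0.66, edgeR adjusted p 0.0297).

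Relatives of the markers by protein family were 12 genes, of which 10 were tested. In SIRMu-1 1 was higher and 5 lower than in primary cultures (median -0.48), and in rMC-1 2 were higher and 6 lower (-0.44). With passage 3 primary libraries only, the 1 change in these counts was that 1 gene, not 2, was higher in rMC-1. Pdgfrb and Pdgfra, of the same receptor family as Csf1r, were called lower in rMC-1, by -4.11 ± 0.40 (edgeR adjusted p 3.81e-06) and -6.11 ± 0.90 (8.44e-05), and neither was called in SIRMu-1. Kit, also of that family, had 4 to 42 reads in primary libraries, 23 to 83 in rMC-1 and none in SIRMu-1. Aif1l, the paralog of Aif1, stood at 11.5 ± 5.4 CPM in primary cultures, 91.6 ± 34.5 in SIRMu-1 and 305.0 ± 34.2 in rMC-1. It rose by 3.00 ± 0.38 in SIRMu-1 (edgeR adjusted p 0.000114) and by 4.73 ± 0.43 in rMC-1 (2.24e-06), the 2 lines in which Aif1 had 0 reads. Ptpre, a receptor-type phosphatase gene like Ptprc, fell by 4.15 ± 0.79 in SIRMu-1 (edgeR adjusted p 0.00133).

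Genes of lysosomes, the compartment of CD68 and LAPTM5, were listed as 15, and all were tested. In SIRMu-1 against primary cultures 13 were lower and 1 higher (median log2 change -1.25), and in rMC-1 14 were lower and none higher (-1.81). In SIRMu-1 against rMC-1 9 were higher and 1 lower (0.55). Lamp1, which like CD68 belongs to the LAMP family, was at 1324 ± 145 CPM in primary cultures, 507 ± 33.6 in SIRMu-1 and 184.5 ± 10.9 in rMC-1. Ctsl, encoding cathepsin L, was at 1861 ± 265 CPM in primary cultures, 420 ± 67.7 in SIRMu-1 and 282 ± 57.5 in rMC-1. Psap (prosaposin) and Npc2 (a lysosomal cholesterol carrier) were also called lower in both lines, and Ctsz (cathepsin Z) was higher in SIRMu-1 (log2 change 1.05) and lower in rMC-1 (-8.69). Cd68 was lowest in SIRMu-1, whereas 9 of these 15 genes were called higher there than in rMC-1.

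Since Tmem119 is also known from osteoblasts, 13 osteoblast and mesenchyme genes were listed, of which 11 were tested. Against primary cultures 7 were lower and 1 higher in SIRMu-1 (median log2 change -2.49), and 10 were lower and none higher in rMC-1 (-6.07). With passage 3 primary libraries only, 5 were lower and 1 higher in SIRMu-1 (-1.29), and again 10 lower in rMC-1 (-5.88). Col1a1, a type I collagen gene, was at 56500 ± 30370 CPM in primary cultures, 36740 ± 5178 in SIRMu-1 and 3214 ± 647 in rMC-1. Postn (periostin) was at 9469 ± 5077 CPM in primary cultures, 4461 ± 2682 in SIRMu-1 and 3.87 ± 3.01 in rMC-1. Like Tmem119, both were called lower in rMC-1, by -4.14 ± 0.49 (edgeR adjusted p 1.52e-05) and -11.26 ± 1.07 (3.09e-06). Col1a2, the other type I collagen gene, had only 23 to 53 reads in primary, 41 to 62 in SIRMu-1 and 2 to 7 in rMC-1 libraries. Why it was read so much less than Col1a1 was not tested, nor whether low counts of a gene here reflect little RNA. Ibsp (bone sialoprotein) had 259, 1227, 37 and 4 reads and Sp7 (osterix) 348, 376, 1 and 7 in primary libraries. Both were highest in primary replicates 1 and 2 and had 0 reads in SIRMu-1. Spp1 (osteopontin) had the opposite order, with 354.9, 396.5, 849.5 and 993.2 CPM in primary replicates 1 to 4, and 34.0 to 197.1 CPM in SIRMu-1. Thy1, a surface glycoprotein gene of fibroblasts, stood at 566.5 ± 503.8 CPM in primary cultures and at 0.0287 in SIRMu-1.

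For each tested marker, the 3 tested genes with the most similar profile were taken by Pearson correlation of log2 CPM over the 12 libraries. These correlations describe profiles over 3 groups that share their libraries and are not tested. Cd48, Mmp2 and Cdh11, with r of 0.996 each, were closest to Tmem119. Mmp2, which encodes a gelatinase, was at 2886 CPM in primary cultures, 922.8 in SIRMu-1 and 0.642 in rMC-1. Cdh11, the gene of an adhesion molecule of mesenchymal cells, was at 586.9, 466.4 and 0.132 CPM. Of these 3 only Cd48 is in a leukocyte list.

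Closest to Csf1r were Dhx30 (r = 0.961), Megf6 (0.954) and Rnf181 (0.95). Dhx30 varied little, from 66.5 to 94.9 CPM over the 12 libraries, where Csf1r went from 0.0824 to 4.10 CPM. Megf6 had 69 reads in SIRMu-1 replicate 2 and 1 to 6 in the other SIRMu-1 libraries, and Rnf181 5161 against 797 to 2313. These genes were chosen for a profile that includes that library, so their high level there is a description only. In SIRMu-1 replicate 2, Laptm5, Ptprc, Tyrobp, Aif1 and Cx3cr1 had 0 to 4 reads. Of the 6 endothelial genes listed, Pecam1 (CD31), also found on leukocytes, had 171 reads there, or 5.38 CPM, against 0.362 to 0.534 CPM in the other SIRMu-1 libraries. Tek had 975 reads, within the range of the other 4 (594 to 1253), and Cdh5, Kdr, Cldn5 and Emcn had 0 to 2. The part of other cells in the level of Csf1r there was not tested. Laptm5 was closest to Blnk (0.941), Dlx3 (0.94) and Syt13 (0.935). Blnk, a B cell adaptor gene, had 351, 537, 3 and 13 reads in primary libraries, and Dlx3, a homeobox gene, 121, 130, 0 and 40. Closest to Cd68 were Hmha1 (0.918), Psd (0.902) and Wnt6 (0.896), all with more CPM in rMC-1 than in SIRMu-1 on average. The plot of log2 CPM shows the profiles for Tmem119 and Csf1r.

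**Figure D4:**
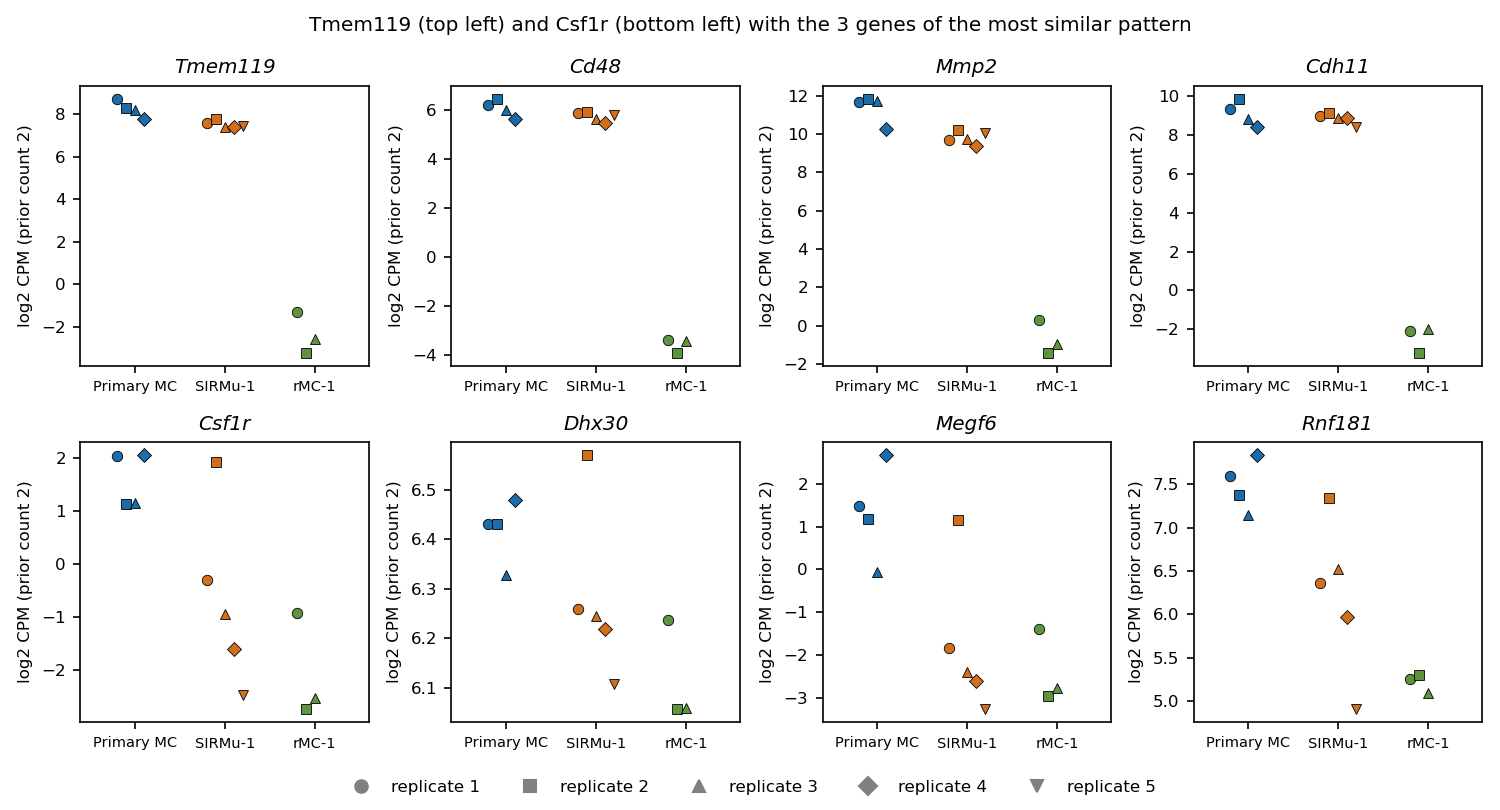
Log2 CPM (prior count 2) of Tmem119 (upper row) and Csf1r (lower row), each with the 3 tested genes of the most similar profile over the 12 libraries. Each point is a library and its shape the replicate number. The upper genes are high in all primary and SIRMu-1 libraries and near the floor in rMC-1, and SIRMu-1 replicate 2 stands above the other SIRMu-1 libraries for all genes of the lower row.

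Within rMC-1, replicate 1 held the most reads of Tmem119 (12, against 2 and 4), Csf1r (16, against 4 and 4) and Laptm5 (10, against 1 and 3). It did not hold the most of Cd68 or of Tyrobp. Blnk, with 11, 7 and 7 reads, and Mmp2, with 41, 15 and 17, were also highest there. A reason for this was not tested.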

How the data were processed

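Polyadenylated RNA of 12 libraries was sequenced, per the labels, with a stranded kit. The submitters' processing notes name cutadapt 1.8.1, STAR 2.5.3a, edgeR 3.18.1 and build rn6. What each tool did, the annotation and the handling of strand were not given in the sources used here. Per library, the authors deposited raw read counts (whole numbers) of 17315 genes. Of the 8 markers only Cx3cr1 overlaps another gene in RefSeq. Reads outside genes (24.2% to 30.3% of a library), with several mapping places (9.47% to 12.3%), unmapped (1.84% to 2.54%) or ambiguous (0.152% to 0.194%) were left out.

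Samples were grouped by their labels. Counts were fitted in R 4.3.3 with edgeR 4.0.16 (TMM factors, filterByExpr, quasi-likelihood test, 3 group means, 9 residual degrees of freedom), over 11321 genes, with 5994 not tested. Benjamini-Hochberg adjustment ran over every tested gene, with calls made below 0.05. DESeq2 1.42.0, other scalings and filters, a replicate block, summed file codes and left-out libraries were alternatives. So were fits of only the 2 groups compared, of only the SIRMu-1 libraries given both drugs, and of primary libraries of 1 passage. The code was tested on simulated data. Sequences came from RefSeq (GRCr8).

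The 8 markers and all gene lists were chosen with earlier results of these data known. Named were all markers, from each other list the 2 genes with the highest mean CPM and the 2 called genes with the largest change against primary cultures in each line, myeloid genes with 10 or more reads in a library, and the 3 genes most similar to each tested marker. Rlbp1, Glul, Slc1a3, Aqp4, Kcnj10, Sp7, Spp1, Col1a2, Hcst, Il34, P2ry12, P2ry13, Cd163, Cd52, Ikzf1, Pecam1, Cdh5, Cldn5 and Emcn were singled out after their values were seen. A gene of the myeloid transcription factor list is in the counts over lists but its values are not reported here. Values of some genes under the rule (among them Car2, Sox2 in the lines, and the pericyte, pigment epithelium and photoreceptor genes) are left out for brevity.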

Additional observations from a re-analysis of the deposited data

Results flagged for a closer look

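Csf1r in SIRMu-1 replicate 2 stood at 3.75 CPM, against 0.112 to 0.747 CPM in the other 4 libraries of the line. Its gap to the next library was 0.825 of the range of the group, above Dixon's critical value of 0.71 for 5 samples. Of the 9 groups of marker values examined this way, chance alone would mark about 5% each. That library was at passage 11 without the drugs, as was replicate 4, where Csf1r stood at 0.263 CPM. In the same library Pecam1, a gene of endothelium and leukocytes, stood at 5.38 CPM, against 0.362 to 0.534 CPM in the other 4. That library also differed over many genes. The mean chi-square per gene between its counts and those of another SIRMu-1 library was 172.0 to 443.6. Among replicates 1, 3 and 4 it was 43.5 to 78.2, and between these and replicate 5 148.1 to 210.3.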

How the results depend on the processing

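No tested marker's log2 change changed sign under any alternative run. Of 257 alternative values of a marker's log2 change, 229 stayed on their side of the threshold. The number of markers called lower in SIRMu-1 than in primary cultures was 3, and 5 without the expression filter, 1 without primary replicate 1 (1 to 4 over all single libraries left out), 1 with libraries of the same file code summed, and 0 with passage 3 primary libraries only, a choice made after seeing the data. The cause of the lost calls was not tested; the last 3 settings compare fewer samples. In rMC-1 against primary cultures it was 3, and 5 without the filter, because the 4 markers with the fewest reads then entered the fit (2 to 3 over single libraries left out). It was 2 there with passage 3 primary libraries only. Over all genes, SIRMu-1 against primary cultures gave 5220 calls, 3072 with file codes summed and 4603 to 5339 over single libraries left out. In rMC-1 against primary cultures 8017 genes were called, and 7294 to 8187 over single libraries left out. Under a filter of over 1 CPM in 3 libraries Laptm5 was not tested. Depth limits Aif1, Ptprc, Cx3cr1 and Tyrobp, with 0 to 4 reads in most libraries.

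With the replicate number as a block, 1 marker was called in SIRMu-1 against primary cultures, where Tmem119 had a change of -0.68 (adjusted p 0.0599) and Cd68 of -1.27 (0.0732). Deviations of the 10 same-numbered pairs of libraries correlated at -0.063 to 0.098, and none was over 0.1, so the numbers were not taken to pair the samples.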
